A study of Mus musculus with 4 samples.

Results

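Cxcl12, Kitl, Il7, Vcam1, Angpt1, Csf1, Il34, Ebf3, Foxc1 and Lepr are 10 genes that marrow stroma uses to hold and feed blood-forming cells, or that mark the stroma that does so. They were taken by name from a list of niche factors and identity genes of CAR cells, the CXCL12-abundant reticular cells of bone marrow, and they are 10 of the 32286 features in the count tables. CAR cells are perivascular stromal cells that make most of the CXCL12 and stem cell factor of adult marrow, carry the leptin receptor on their surface, and lie on the path to bone-forming and fat-storing cells. CXCL12 keeps haematopoietic stem cells and B-cell precursors in the marrow through its receptor CXCR4, stem cell factor (the product of Kitl) acts through KIT, and interleukin 7 is required by developing B cells in the mouse. The transcription factors FOXC1 and EBF3 are known to maintain the CAR state, and EBF3 is known to hold it back from bone formation.

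The data were single-cell RNA counts from a mouse model of disuse bone loss. The immobilized group held cells of 6 mice whose hindlimbs had been immobilized for 2 weeks, and the control group held cells of 4 mice without immobilization; all were 10 weeks old at collection. Every animal carried Tnfsf11tTA/+;LC1;R26-tdTomato on C57BL/6J and had received doxycycline from E0 until birth, which holds the label off before birth. In this system the Tnfsf11 (RANKL) locus drives a tetracycline-controlled transactivator, which turns on Cre through LC1 and so marks RANKL-expressing cells and their descendants with tdTomato. The values therefore describe stroma with a history of Tnfsf11 expression, not all marrow stroma. Live CD45.2-Ter119-tdTom+ cells from femurs and tibias were pooled within a group, and each pool was run as 2 lanes. The lanes of a pool shared 1747 barcodes in the immobilized group and 1617 in the control group, agreed in UMIs per cell (r = 0.9998 and 0.9999), and differed over genes by less than sampling noise, so they were counted as 1 sample. There is thus 1 pool per group, no test of a difference between groups can be made, and none is given.

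All 10 genes are protein-coding, and their positions follow on GRCm38 with the GENCODE vM21 annotation. The secreted or membrane-bound ligands are Cxcl12 (ENSMUSG00000061353; chr6:117168535-117181367, plus strand), Kitl (ENSMUSG00000019966; chr10:100015630-100100416, plus strand), Il7 (ENSMUSG00000040329; chr3:7569994-7613760, minus strand) and Angpt1 (ENSMUSG00000022309; chr15:42424723-42676977, minus strand). The adhesion molecule is Vcam1 (ENSMUSG00000027962; chr3:116109949-116129688, minus strand). The ligands of the CSF1 receptor are Csf1 (ENSMUSG00000014599; chr3:107741048-107760469, minus strand) and Il34 (ENSMUSG00000031750; chr8:110741829-110805924, minus strand). The transcription factors are Ebf3 (ENSMUSG00000010476; chr7:137193673-137314445, minus strand) and Foxc1 (ENSMUSG00000050295; chr13:31806633-31812476, plus strand), and the receptor is Lepr (ENSMUSG00000057722; chr4:101717404-101815352, plus strand).

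RefSeq promoter windows of 300 bases (250 before the transcript start and 50 after it, GRCm38.p6) were held for 6 of the 10 genes: Cxcl12, Kitl, Csf1, Ebf3, Foxc1 and, with 2 windows, Lepr. Shown are the window of Cxcl12, the ligand that gives CAR cells their name, and the window of Csf1, the only gene of the 10 with a higher level in osteo-primed cells than in CAR cells. They run 5′ to 3′ on the gene's strand, with GC boxes (GGGCGG or its reverse complement) in capitals. The Cxcl12 window lies at chr6:117168285-117168584 on the plus strand and the Csf1 window at chr3:107760420-107760719 on the minus strand.
Cxcl12: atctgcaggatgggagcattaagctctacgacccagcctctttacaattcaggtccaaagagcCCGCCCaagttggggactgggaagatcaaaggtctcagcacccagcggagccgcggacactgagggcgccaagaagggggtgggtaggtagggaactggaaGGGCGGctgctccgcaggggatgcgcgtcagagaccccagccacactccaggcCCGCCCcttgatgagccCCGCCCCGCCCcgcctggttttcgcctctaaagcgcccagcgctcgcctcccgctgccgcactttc
Csf1: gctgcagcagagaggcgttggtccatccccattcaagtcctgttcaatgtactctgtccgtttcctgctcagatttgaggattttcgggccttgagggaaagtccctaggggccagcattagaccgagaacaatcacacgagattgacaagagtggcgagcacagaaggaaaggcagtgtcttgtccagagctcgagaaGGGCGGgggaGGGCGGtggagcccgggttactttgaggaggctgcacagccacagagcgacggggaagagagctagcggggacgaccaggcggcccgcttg
The Cxcl12 window held 5 GC boxes and the Csf1 window 2, and 6 of the 7 windows of these genes held at least 1, against 35.6% of all 32817 promoter windows. A motif of the EBF family (TCCC and GGGA parted by any 2 bases, either strand) stood in 0 of the 7 windows and in 0.905% of all windows. A forkhead motif (GTAAACA, either strand) stood in 0 of the 7 and in 3.65% of all. These are matches of letters, not binding sites, and nothing about EBF3 or FOXC1 binding follows from them.

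After filtering, 1430 immobilized and 1437 control cells remained, with a median of 5618 and 5485 UMIs, and lanes held 9960011 and 10084134 UMIs (immobilized) and 10732720 and 10860328 UMIs (control). Clusters were named from marker genes that leave out all 10 members, and the members were also left out of the variable genes, so no cluster was defined by them. CAR stromal-like cells, hereafter CAR cells, numbered 351 in the immobilized pool and 579 in the control pool (24.5% and 40.3% of kept cells). Their 3 clusters were each enriched for 14 to 17 of the 18 CAR markers. Osteo-primed stromal-like cells numbered 374 and 212 (26.2% and 14.8%), and osteoblast-like cells 465 and 479. The share of female cells among sexed cells, called from Xist and Y-linked transcripts, was 30.5% and 48.4% in CAR cells, 55.7% and 65.3% in osteo-primed cells, and 76.7% and 93.7% in osteoblasts. The labels do not say how many animals of each sex went into a pool, so sex, animal and pool cannot be told apart. In spite of the sort, 133 immobilized and 75 control cells were haematopoietic-like. Those cells are not known as a source of most of the 10 genes, and their values are given beside low levels elsewhere as a guide to free RNA. The pools shared 3 barcodes.

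**Figure D1:**
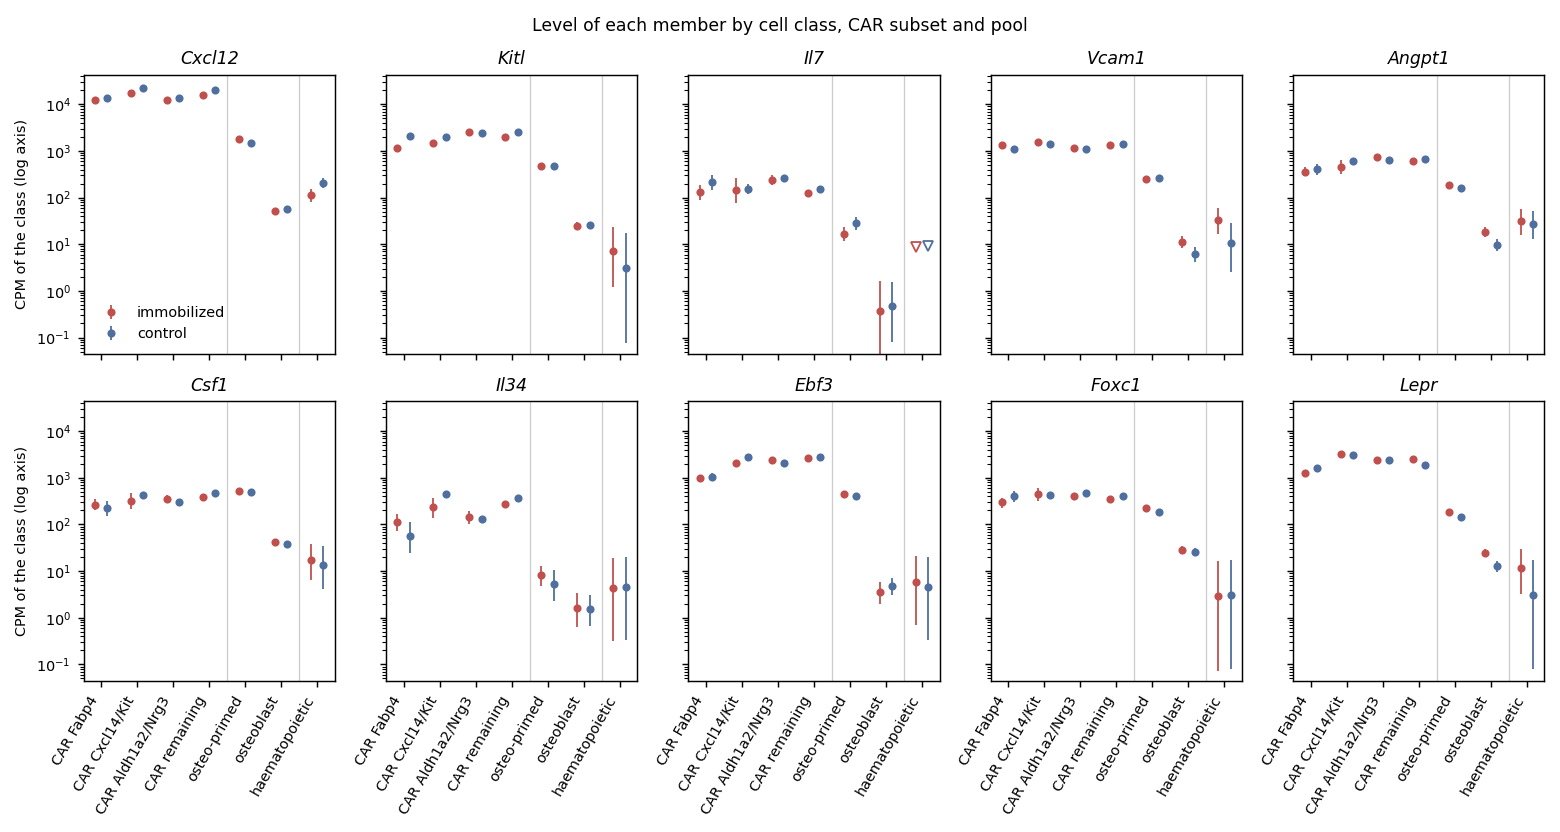
Level of each of the 10 genes in CPM of a cell class (log axis), by cell class, CAR subset and pool. Immobilized cells are in red on the left of each pair and control cells in blue on the right, bars are exact 95% counting intervals, and an open triangle marks a gene with no UMI at the limit that 3 counts allow. CAR cells and their subsets hold the highest levels of 9 of the 10 genes among the 3 classes, and Csf1 is highest in osteo-primed cells.

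Of the 10 genes, 9 formed a gradient from CAR cells over osteo-primed cells to osteoblasts. Over all cells of a class Csf1 peaked in osteo-primed cells, but not among male control cells. Levels are given as CPM, the share of a gene in all UMIs of the cells of a class scaled to 1000000, averaged over the lanes. They are 3′ counts without correction for length, so levels of different genes are not set against each other. Intervals in parentheses are exact 95% intervals and cover counting error only, not differences between animals. In CAR cells the lanes of a pool differed by a median of 2.68% (immobilized) and 1.41% (control) over the 10 genes and by at most 7.13%.

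Cxcl12, the chemokine that names these cells, stood at 15101 and 15071 CPM in the lanes of immobilized CAR cells and at 18013 and 18177 CPM in those of control CAR cells. In osteo-primed cells it stood at 1798 CPM in immobilized cells, against 1484 CPM in control cells. In osteoblasts it stood at 51.6 CPM in immobilized cells, against 58.0 CPM in control cells, and haematopoietic-like cells, which should lack it, held 115 and 203 CPM. The osteoblast level was thus below that of haematopoietic-like cells in both pools. The log2 ratio of osteo-primed over CAR cells was -3.07 (-3.12 to -3.02) in the immobilized pool and -3.61 (-3.67 to -3.55) in the control pool.

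Kitl, which encodes stem cell factor, had 1972 CPM in immobilized cells, against 2373 CPM in control cells of the CAR class. Osteo-primed cells had 474 CPM in the immobilized and 472 CPM in the control pool, and osteoblasts had 24.7 and 25.4 CPM. Il7 was a rare transcript, with 146 CPM in immobilized cells, against 191 CPM in control cells of the CAR class. It rested on 38.5 and 43 UMIs in osteo-primed cells (16.7 and 28.4 CPM) and on 1.5 and 2.5 UMIs in all osteoblasts. No Il7 UMI was found in haematopoietic-like cells, which allows up to 8.71 CPM (immobilized) and 9.23 CPM (control) at 3 counts. Angpt1, a ligand of the TIE2 receptor of endothelial and haematopoietic stem cells, kept more of its level in the osteo-primed class than Cxcl12 did. Its CAR level was 588 CPM in immobilized cells, against 630.3 CPM in control cells, and its osteo-primed level was 191 and 160.4 CPM. The log2 ratio of osteo-primed over CAR cells was -1.62 and -1.97 for Angpt1 in the immobilized and control pools, against -3.07 and -3.61 for Cxcl12.

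Vcam1, the adhesion molecule that binds integrins of stem cells and lymphocytes, had 1333 CPM in immobilized cells, against 1284 CPM in control cells of the CAR class. Osteo-primed cells had 256 and 261 CPM. Osteoblasts had 11.2 and 6.09 CPM. Haematopoietic-like cells, from clusters named B lineage, granulocyte and erythroid, had 33.4 and 10.8 CPM (11.5 and 3.5 UMIs). The osteoblast level of Vcam1 was thus below that of haematopoietic-like cells in both pools.

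The ligands of the CSF1 receptor, which macrophages and osteoclast precursors need, differed in where they were found. Il34 had 232 CPM in immobilized cells, against 288 CPM in control cells of the CAR class and was scarce elsewhere, with 8.05 and 5.29 CPM in osteo-primed cells (18.5 and 8 UMIs). Csf1 had 358 and 367 CPM in the lanes of immobilized CAR cells and 405 and 395 CPM in those of control CAR cells. Its osteo-primed level was 509 and 528 CPM in the immobilized lanes and 506 and 495 CPM in the control lanes, above every CAR lane. The lanes of a pool share their cells. By sex, osteo-primed and CAR levels of Csf1 in immobilized cells were 499 and 366 CPM (female) and 544 and 359 CPM (male). In control cells they were 492 and 303 CPM (female) and 492 and 497 CPM (male). Male control cells thus had no higher Csf1 level in the osteo-primed class. The log2 ratio of osteo-primed over CAR cells was 0.52 (0.38 to 0.66) in the immobilized pool and 0.32 (0.19 to 0.46) in the control pool for Csf1, and -4.81 (-5.61 to -4.18) and -5.68 (-6.98 to -4.78) for Il34. Even in osteoblasts Csf1 stood at 43.0 and 38.6 CPM, above the 17.4 and 13.8 CPM of haematopoietic-like cells.

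Ebf3, a transcription factor of the early B-cell factor family, had 2420 CPM in immobilized cells, against 2486 CPM in control cells of the CAR class and 451 and 401 CPM in osteo-primed cells. It was near absent in osteoblasts, at 3.52 and 4.74 CPM. Foxc1, the forkhead factor, extended further along the bone path. It had 352 CPM in immobilized cells, against 434 CPM in control cells of the CAR class, 220.3 and 188 CPM in osteo-primed cells, and 28.7 and 26.3 CPM in osteoblasts, where haematopoietic-like cells had 2.90 and 3.08 CPM. Lepr, the leptin receptor, had 2394 CPM in immobilized cells, against 2240 CPM in control cells of the CAR class. It had 183 and 142 CPM in osteo-primed cells and 24.7 and 12.7 CPM in osteoblasts.

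In osteo-primed over CAR cells, 9 of the 10 genes were lower by more than 1.5-fold in both pools, where 20.1% (immobilized) and 23.3% (control) of all genes with at least 50 UMIs were lower by that much. Csf1 was the exception; it was higher, but by less than 1.5-fold, where 13.3% and 11.9% of all genes were higher by more. In osteoblasts over CAR cells all 10 were lower by more than 1.5-fold, against 41.8% and 50.9% of all genes (15.8% and 14.8% were higher). Foxc1 and Csf1 had the smallest differences there, with log2 ratios of -3.61 and -3.07 in the immobilized pool and -4.04 and -3.37 in the control pool. The genes were also found together in single cells. Lepr had a UMI in 93.2% of immobilized and 95.7% of control CAR cells thinned to 2000 UMIs (95.9% and 97.6% before thinning), against 25.3% and 20.8% of osteo-primed cells and 1.65% and 0% of haematopoietic-like cells. At that depth CAR cells had a UMI for a median of 7 of the 10 genes in both pools, osteo-primed cells for 3, and osteoblasts and haematopoietic-like cells for 0. At least 5 of the genes were seen in 94.2% of immobilized and 97.2% of control CAR cells, and in 23.9% and 26.1% of osteo-primed cells.

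**Figure D2:**
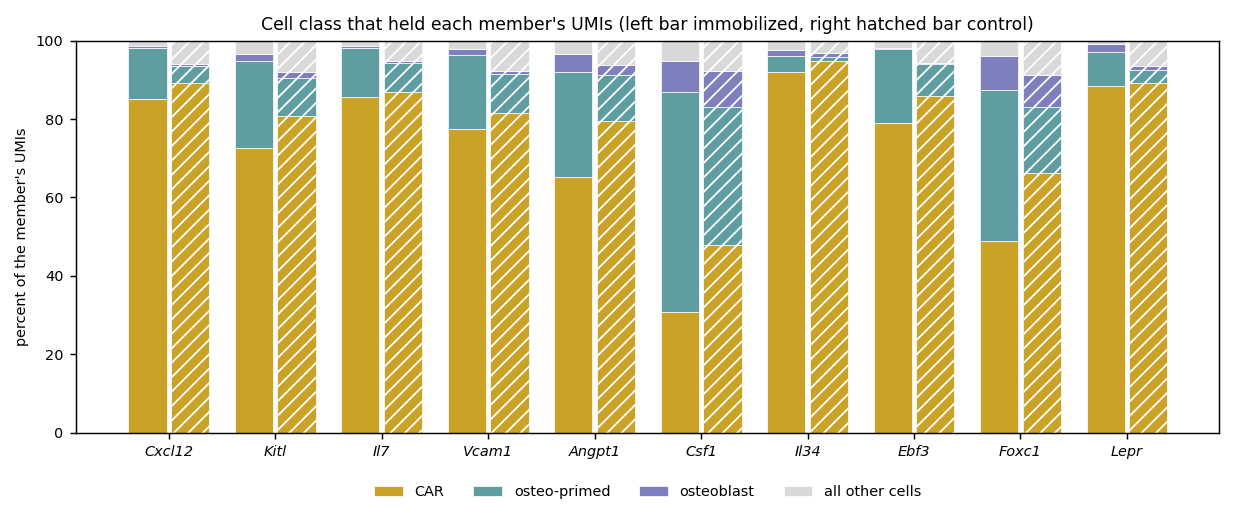
Share of all UMIs of each gene that came from each cell class (percent), in the immobilized pool on the left and the control pool on the right. CAR cells gave most UMIs of 8 of the 10 genes in both pools, and osteo-primed cells gave 56.0% of the Csf1 UMIs in the immobilized pool.

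Because the pools differed in how many cells of each class they held, the classes gave different shares of each transcript. CAR cells held 85.2% of all Cxcl12 UMIs in the immobilized pool and 89.3% in the control pool, 72.6% and 80.9% of Kitl, 92.1% and 94.8% of Il34, and 88.5% and 89.2% of Lepr. Csf1 was split otherwise: CAR cells held 30.8% and osteo-primed cells 56.0% of its UMIs in the immobilized pool, and 47.8% and 35.2% in the control pool. For Foxc1 the CAR share was 48.8% and 66.2%, and the osteo-primed share 38.7% and 16.9%. These shares come from 1 pool each and carry no error between animals. Among the cells outside these classes, the 50 pericyte or smooth muscle-like cells of the control pool had 8535 CPM of Cxcl12 and 1276 CPM of Lepr, and only 6 such cells were found in the immobilized pool. CAR markers summed to 15354 CPM in the 50 control cells, against 23312 CPM in control CAR cells. Whether CAR cells or mixed cells lie in that cluster was not tested.

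The next question was whether immobilization went with another level of these genes within a class. In CAR cells the levels were close: 8 of the 10 genes were lower and 2 were higher in the immobilized pool, with a median log2 ratio of immobilized over control of -0.20, beside 0.02 over all 7581 genes with at least 50 UMIs. None of the 10 passed 1.5-fold, where 3.73% of all genes were lower and 3.77% higher by that much. Cxcl12 was lower, with a log2 ratio of -0.26 (-0.28 to -0.24), as were Kitl at -0.27 (-0.33 to -0.21) and Il7 at -0.39 (-0.61 to -0.17). Il34 was at -0.31 (-0.49 to -0.14) and Foxc1 at -0.30 (-0.44 to -0.16). For these 5 genes the counting interval lay below 0. Lepr was slightly higher, at 0.10 (0.04 to 0.15). For Vcam1 (0.05, interval -0.02 to 0.13), Angpt1 (-0.10, interval -0.21 to 0.01), Csf1 (-0.14, interval -0.28 to 0.00) and Ebf3 (-0.04, interval -0.09 to 0.02) the interval reached or crossed 0. These intervals do not hold the variation between animals, so a difference between 1 pool and 1 other pool cannot be assigned to immobilization.

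**Figure D3:**
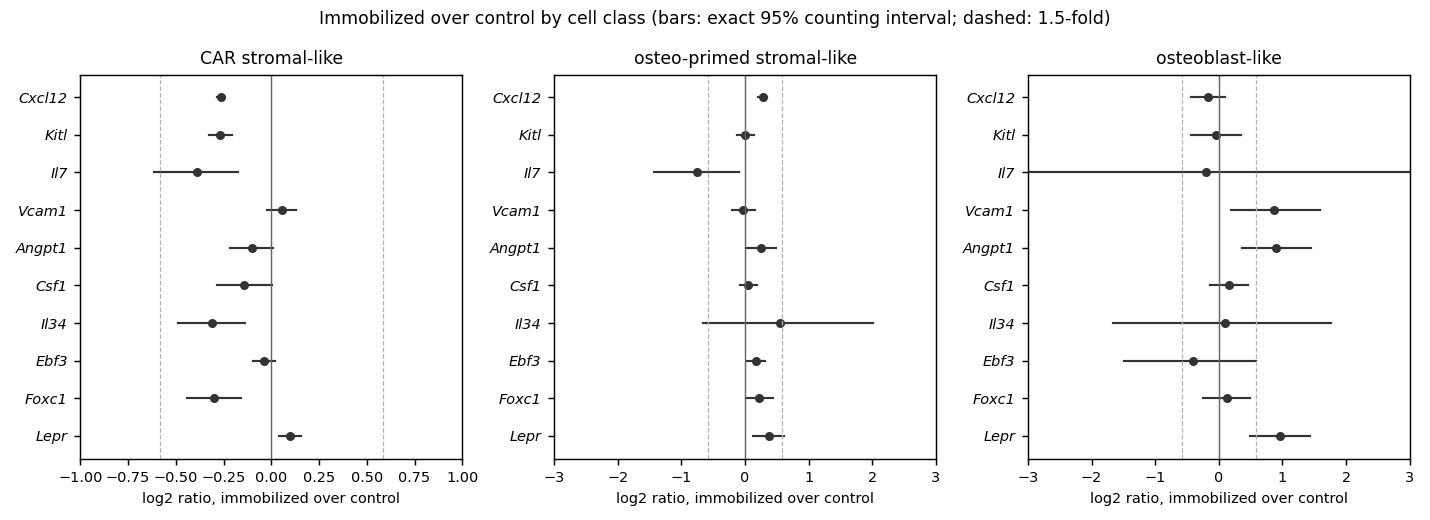
Log2 ratio of immobilized over control levels for each of the 10 genes in CAR cells, osteo-primed cells and osteoblasts. Points are the ratio of CPM, bars are exact 95% counting intervals, and dashed lines mark 1.5-fold. All 10 CAR points lie between the dashed lines, and in osteoblasts Vcam1, Angpt1 and Lepr lie above the upper one; the bar of Il7 in osteoblasts runs past both ends of the axis.

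Other properties of the CAR class moved with the pool. A list of stress and dissociation genes summed to 824 CPM in immobilized and 1385 CPM in control CAR cells. All 10 of its members with at least 50 UMIs were lower by more than 1.5-fold, where 3.73% of all genes were. Osteoblast markers in CAR cells summed to 4848 and 8229 CPM, and erythroid markers to 429 and 153.9 CPM. Median UMIs per CAR cell were 4402 and 3971, and mitochondrial shares 2.93% and 2.71%. Different clusters also held the CAR class in each pool: when it was clustered alone, cluster 4 held 116 immobilized and 4 control cells, cluster 6 held 47 and 10, cluster 5 held 7 and 72, cluster 7 held 19 and 103, and cluster 10 held 4 and 66. The part of these differences in the ratios above was not tested. With every cluster given the same weight in both pools, Cxcl12 stood at -0.027 in place of -0.26, and Lepr at -0.05 in place of 0.10. These values lean on few cells in some clusters. Cluster 4 enters with 4 control cells and cluster 10 with 4 immobilized cells.

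For Il34 and Il7 the gap between female and male CAR cells was wider than the gap between the pools. Il34 had 100.0 CPM in female and 283 CPM in male CAR cells of the immobilized pool, and 115 and 441 CPM in those of the control pool. The log2 ratio of female over male cells was -1.49 (-1.97 to -1.06) and -1.94 (-2.23 to -1.67). Il7 went the other way, with 213 CPM in female and 116 CPM in male cells of the immobilized pool and 247 and 144 CPM in those of the control pool, at log2 ratios of 0.87 (0.48 to 1.25) and 0.78 (0.50 to 1.06). For both genes this gap between the sexes was wider than the gap between the pools. That held for other genes too, such as Vcam1. Its ratio of female over male cells was -0.29 (immobilized) and -0.37 (control), and its ratio between the pools was 0.05. The pools hold different animals, but the female and male cells of a pool come from an unknown number of mice.

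In the immobilized CAR cells 1 gene was lower (6.78% of all genes were) and 1 was higher (3.99%) by more than 1.5-fold in female over male cells. In the control CAR cells 4 were lower (5.83% of all genes) and 1 was higher (6.79%). The control cells added Cxcl12 at -0.62 (-0.65 to -0.59), Csf1 at -0.71 (-0.91 to -0.52) and Ebf3 at -0.71 (-0.79 to -0.64) to the lower side. In the immobilized cells the ratios of these 3 genes were -0.31 (-0.35 to -0.27), 0.03 (-0.23 to 0.29) and -0.34 (-0.45 to -0.24). Kitl lay on different sides of 0 in the pools, at 0.28 (0.17 to 0.38) in immobilized and -0.27 (-0.34 to -0.19) in control cells, while Foxc1 stayed near 0 at 0.10 (-0.17 to 0.35) and 0.09 (-0.09 to 0.27).

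**Figure D4:**
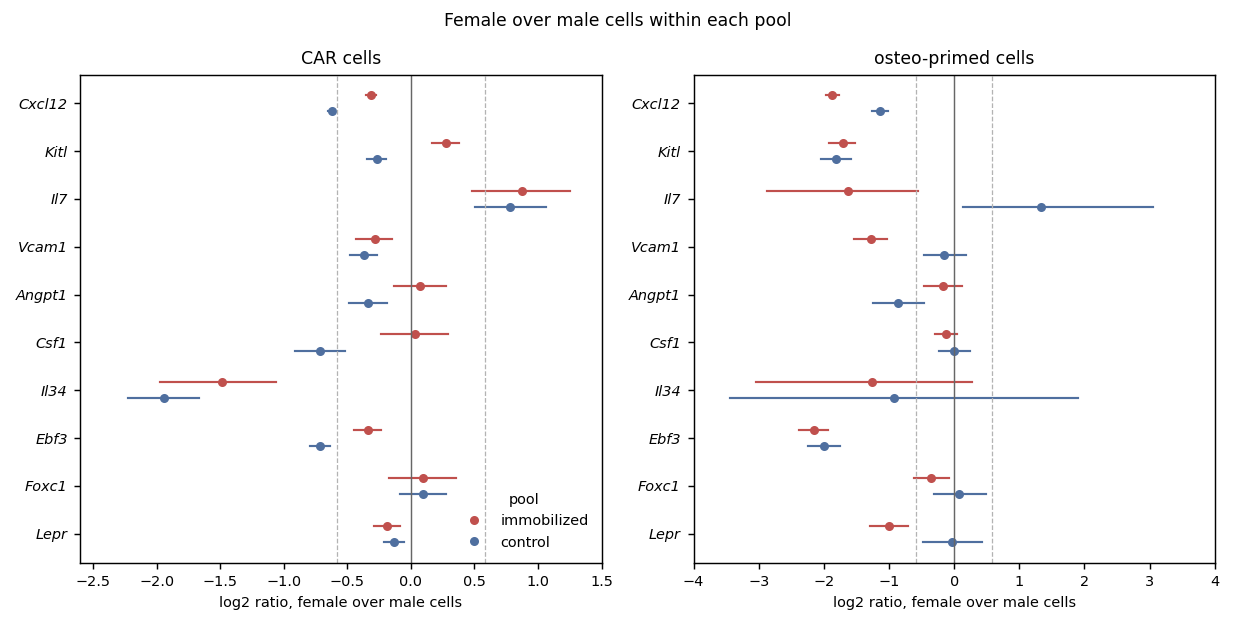
Log2 ratio of female over male cells for each of the 10 genes in CAR and osteo-primed cells, in the immobilized pool (red) and the control pool (blue). Bars are exact 95% counting intervals and dashed lines mark 1.5-fold. In CAR cells of both pools Il34 lies below the lower line and Il7 above the upper line, and in osteo-primed cells Cxcl12, Kitl and Ebf3 lie far below it.

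Within each sex the comparison of immobilized with control CAR cells took different values. Female CAR cells (93 immobilized, 249 control) had a median log2 ratio of 0.02 over the 10 genes, and male CAR cells (212 and 265) had -0.30. In female cells 0 of the 10 genes passed 1.5-fold in either direction (7.57% of all genes lower, 4.53% higher), and in male cells Il34 alone did, on the lower side (4.18% lower, 5.49% higher). Cxcl12 was lower in both sexes, at -0.13 (-0.17 to -0.08) in female and -0.44 (-0.46 to -0.41) in male cells. Kitl was at 0.07 (-0.04 to 0.17) in female and -0.48 (-0.56 to -0.40) in male cells. Csf1 was at 0.28 (0.01 to 0.54) in female and -0.47 (-0.65 to -0.28) in male cells, and Ebf3 at 0.13 (0.02 to 0.24) and -0.25 (-0.32 to -0.18). Il34 was at -0.19 (-0.71 to 0.29) in female and -0.64 (-0.84 to -0.43) in male cells. Foxc1 had nearly the same ratio in both, -0.27 (-0.53 to -0.03) and -0.28 (-0.47 to -0.08). Whether the sexes differ in their ratio was not tested, since each sex of a pool is again 1 sample.

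**Figure D5:**
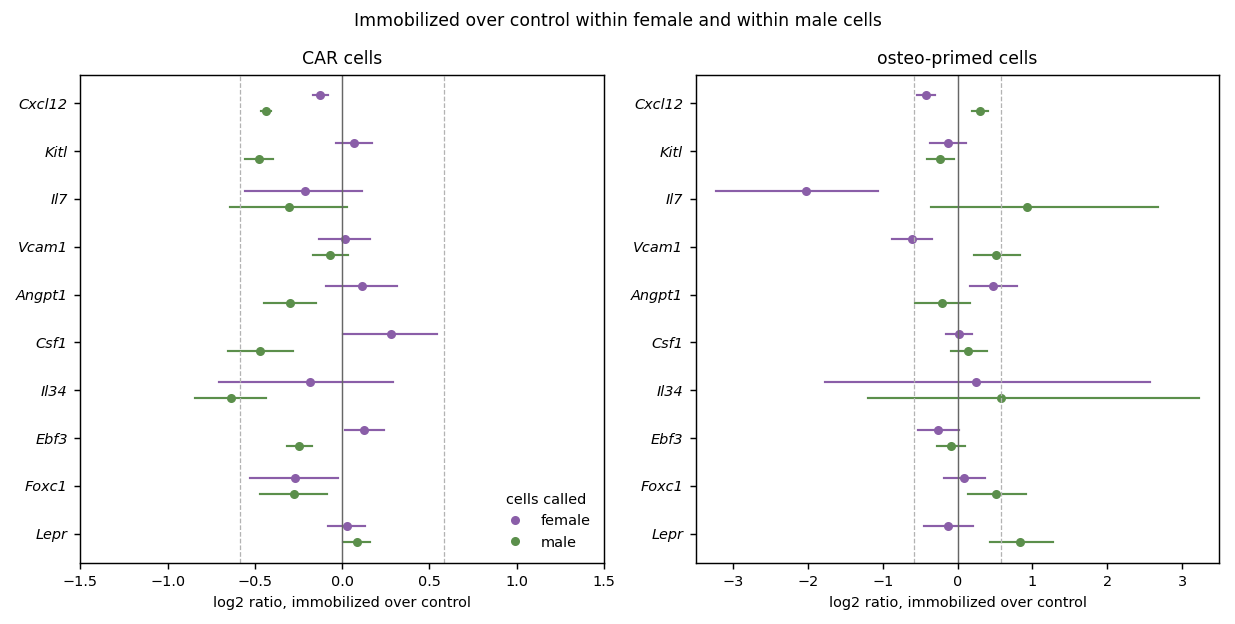
Log2 ratio of immobilized over control levels for each of the 10 genes within female cells and within male cells, for CAR and osteo-primed cells. Bars are exact 95% counting intervals and dashed lines mark 1.5-fold. In CAR cells Csf1 and Ebf3 lie above 0 in female and below 0 in male cells, and in osteo-primed cells Cxcl12 and Vcam1 lie below 0 in female and above 0 in male cells. The immobilized osteo-primed cells include a cluster of 13 cells with no control cell.

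The CAR class, clustered alone, was divided by a rule on Fabp4, on Cxcl14 with Kit, and on Aldh1a2 with Nrg3, none of which is among the 10 genes. The Aldh1a2 and Nrg3 subset held 63 immobilized and 203 control cells, of which 98.2% and 98.5% of the sexed cells were female. The Cxcl14 and Kit subset held 19 and 103 cells, with 0% and 1.14% female. The Fabp4 subset held 31 and 21 cells (68.0% and 100% female), and the remaining 238 and 252 CAR cells were mostly male (10.1% and 15.9% female). When Xist, Tsix and the Y-linked genes were kept out of the clustering, the Aldh1a2 and Nrg3 subset was still 94.3% and 97.8% female and the Cxcl14 and Kit subset 0% and 1.12%. A subset and the rest of the class therefore differ in sex as well as in subset. The ratios of a subset over other CAR cells describe clusters and carry no test.

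In the Aldh1a2 and Nrg3 subset, Il7 stood at 240.5 CPM (immobilized) and 259 CPM (control), the highest of the 4 subsets in the immobilized pool, and its log2 ratio over other CAR cells was 0.92 (0.49 to 1.31) and 0.74 (0.47 to 1.00). Among female cells alone the Il7 ratio was 0.34 (-0.25 to 0.95) and 0.40 (0.01 to 0.83), under 1.5-fold in both pools. Over all cells, Il7 and Il34 were the genes past 1.5-fold there, 1 higher (8.85% and 6.43% of all genes) and 1 lower (18.4% and 7.66%) in each pool. Cxcl12 was lower in the subset than in other CAR cells, at -0.30 (-0.35 to -0.25) and -0.58 (-0.61 to -0.55), and near other female CAR cells, at -0.03 (-0.11 to 0.04) and -0.15 (-0.19 to -0.10). Il34 was lower as well, at -0.75 (-1.27 to -0.30) and -1.52 (-1.82 to -1.23), when all other CAR cells were the comparison. Among female cells alone its sign turned, to 1.41 (0.47 to 2.53) in the immobilized and 0.27 (-0.30 to 0.90) in the control pool. Ebf3 was higher than in other female CAR cells, at 0.56 (0.38 to 0.76) and 0.57 (0.42 to 0.72), as was Angpt1 at 0.71 (0.36 to 1.07) and 0.65 (0.38 to 0.94). The other female CAR cells of both pools include the Fabp4 subset, which was low in these genes. In immobilized female cells Ebf3 stood at 2412 CPM in the Aldh1a2 and Nrg3 subset. There it stood at 2399 CPM in the remaining CAR cells and 1048.5 CPM in the Fabp4 subset. In control female cells the values were 2052, 1620 and 1057 CPM. Between pools the 10 genes differed little within the subset, with a median log2 ratio of immobilized over control of 0.08.

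In the Cxcl14 and Kit subset Lepr stood at 3190 CPM (immobilized) and 3053 CPM (control), and its log2 ratio over other CAR cells was 0.44 (0.25 to 0.62) and 0.57 (0.48 to 0.65). Among male cells alone it was 0.41 (0.21 to 0.59) and 0.63 (0.52 to 0.74). Cxcl12 was higher too, at 17480 and 22806 CPM and log2 ratios of 0.22 (0.15 to 0.30) and 0.42 (0.39 to 0.45), which among male cells alone were 0.14 (0.06 to 0.22) and 0.10 (0.06 to 0.13). In the control pool Il34 reached 460.2 CPM, 0.88 (0.64 to 1.11) above other CAR cells on the log2 scale, and was the 1 gene of the 10 higher by more than 1.5-fold (6.59% of all genes). Against other male cells only, its ratio was 0.04 (-0.23 to 0.31). In the immobilized pool Il34 stood at 234 CPM (19 UMIs in 19 cells), and the log2 ratio of immobilized over control cells of the subset was -0.94 (-1.74 to -0.30). No gene of the 10 was past 1.5-fold over other CAR cells in the immobilized pool (16.6% of all genes lower, 17.5% higher).

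The Fabp4 subset, whose cells express the fatty acid carrier FABP4 and other fat-storage genes, held less of most of the 10 genes. In the immobilized pool 5 were lower than in other CAR cells by more than 1.5-fold (30.5% of all genes), and in the control pool 4 were (21.0%); none was higher (18.4% and 16.9%). Ebf3 stood at 975 CPM (immobilized) and 1057 CPM (control), with log2 ratios over other CAR cells of -1.42 (-1.63 to -1.23) and -1.27 (-1.53 to -1.04). Lepr stood at 1299 and 1655 CPM, with -0.97 (-1.15 to -0.80) and -0.45 (-0.66 to -0.27), and -0.57 (-0.80 to -0.35) and -0.40 (-0.61 to -0.21) among female cells. Among female cells Ebf3 stayed lower, at -1.20 (-1.47 to -0.94) and -0.90 (-1.15 to -0.66). Cxcl12 was lower by less, at -0.32 (-0.38 to -0.26) and -0.42 (-0.49 to -0.35), and among female cells at -0.08 (-0.17 to 0.00) and -0.03 (-0.10 to 0.04). Kitl was lower in immobilized than in control cells of the subset, 1173 against 2057 CPM, a log2 ratio of -0.81 (-1.06 to -0.56). Within its female cells (17 immobilized, 21 control) the Kitl ratio was -0.61 (-0.89 to -0.34). Beside this difference, erythroid markers summed to 1171 CPM in immobilized and 206 CPM in control cells of the subset. Their part in the difference was not tested. The subset rests on few cells, and at a clustering resolution of 2 the rule gave another set, with 13.0% (immobilized) and 3.28% (control) female cells. No cell took the subset when doublet calls were kept, or when the 10 genes were kept in the clustering and markers. Without Xist, Tsix and the Y-linked genes in the clustering it held 25 and 6 cells. A looser cell filter gave 22 and 16 cells (33.3% and 62.5% female), and a stricter one 24 and 34 cells (90.0% and 100% female).

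In the remaining CAR cells Lepr and Cxcl12 differed between the pools in opposite directions. Lepr was higher in immobilized than in control cells, at 2529 against 1869 CPM and a log2 ratio of 0.44 (0.35 to 0.52). Cxcl12 was lower, at 15990 against 20243 CPM and -0.34 (-0.37 to -0.31), and it was lower in both sexes, at -0.15 (-0.25 to -0.06) in female and -0.39 (-0.42 to -0.35) in male cells. Kitl was lower over all remaining cells, at -0.35 (-0.42 to -0.27), but its direction turned with sex: it was higher in female cells, at 0.69 (0.45 to 0.94), and lower in male cells, at -0.51 (-0.60 to -0.42). Lepr was higher in both sexes, at 0.61 (0.34 to 0.88) in female and 0.36 (0.27 to 0.46) in male cells. CAR cluster 4, with 116 of the 238 immobilized and 4 of the 252 control cells, had 3286 CPM of Lepr and 14075 CPM of Cxcl12 in its immobilized cells. Control cells of cluster 5 (72 cells) had 2214 and 18580 CPM, and those of cluster 9 (59 cells) 1844 and 26883 CPM. Compared with the other subsets, Il34 was the 1 gene of the 10 past 1.5-fold in the remaining cells of each pool, at 0.91 (0.57 to 1.28) (immobilized; 8.00% of all genes were higher and 5.88% lower) and 0.72 (0.51 to 0.94) (control; 2.04% and 4.44%), but within female cells the immobilized ratio was -0.75 (-2.37 to 0.39) and within male cells the control ratio was -0.03 (-0.30 to 0.24). With each cluster given the same weight in both pools, the log2 ratio of Lepr between immobilized and control cells in the remaining cells was -0.05. That of Cxcl12 was -0.07. There cluster 4 enters with its 4 control cells and cluster 5 with 7 immobilized cells, so these values rest in part on few cells.

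In osteo-primed cells the median log2 ratio of immobilized over control over the 10 genes was 0.20, beside 0.05 over all 6832 genes with at least 50 UMIs. Il7 alone passed 1.5-fold, on the lower side at -0.76 (-1.43 to -0.10) (2.62% of all genes lower, 4.67% higher). It rests on 38.5 and 43 UMIs, under the 50 of those shares; with a minimum of 1 UMI 14.2% of all genes were lower. Cxcl12 was at 0.28 (0.20 to 0.35), Lepr at 0.37 (0.13 to 0.61), Foxc1 at 0.22 (0.01 to 0.44) and Ebf3 at 0.17 (0.03 to 0.32). Kitl (0.01, interval -0.13 to 0.14), Vcam1 (-0.03, interval -0.21 to 0.16) and Csf1 (0.05, interval -0.08 to 0.18) were near 0.

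The higher Cxcl12 of the immobilized osteo-primed class came with 1 cluster. Cluster 2 held 13 immobilized cells and no control cell and had 10185 CPM of Cxcl12. It also had 2009 CPM of Kitl, 1503 of Vcam1, 2141 of Ebf3 and 1173 of Lepr. Immobilized cells of cluster 3 had 756, 308, 763 and 230 CPM of these genes. Il7 and Il34 were higher in cluster 2 as well, while Angpt1, Csf1 and Foxc1 were lower. Its osteo-primed name rested on 40% of the marker list, against 90% in cluster 3 and 70% in cluster 4. Cluster 3 held 191 immobilized and 107 control cells with 2806 and 2796 CPM of Cxcl12, and cluster 4 held 170 and 105 cells with 329.6 and 323 CPM. Without cluster 2 the log2 ratio of Cxcl12 was 0.05, that of Lepr 0.11, and the median over the 10 genes 0.06. Csf1 stood at 681 and 554 CPM in cluster 3 and 377 and 453 CPM in cluster 4. Kitl was more uneven between these clusters, with 756 and 809 CPM in cluster 3 and 113 and 174 CPM in cluster 4.

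The osteo-primed class was also split by sex. Female over male cells gave log2 ratios of -1.87 (-1.97 to -1.76) (immobilized) and -1.14 (-1.26 to -1.02) (control) for Cxcl12, -1.71 (-1.91 to -1.52) and -1.81 (-2.04 to -1.59) for Kitl, and -2.16 (-2.38 to -1.94) and -1.99 (-2.24 to -1.75) for Ebf3. In the immobilized pool 7 of the 10 genes were lower by more than 1.5-fold in female cells (5.37% of all genes) and 0 higher (5.48%), and in the control pool 5 were lower (7.96%) and 1 higher (11.4%). Those shares are of genes with at least 50 UMIs, which Il7 and Il34, lower in the immobilized pool, and Il34 (lower) and Il7 (higher) in the control pool did not reach. With a minimum of 1 UMI, 19.2% of all genes were lower in the immobilized pool, and 22.5% were lower and 17.6% higher in the control pool. Csf1 was near 0, at -0.13 (-0.30 to 0.05) and 0.00 (-0.24 to 0.24). Within female osteo-primed cells Il7 and Vcam1, 2 of the 10, were lower by more than 1.5-fold in the immobilized pool (5.76% of all genes; 0 higher, 7.22%), and within male cells Il7 and Lepr were higher (5.90%; 0 lower, 2.49%). Il7 did not reach 50 UMIs in either sex, and with a minimum of 1 UMI 16.5% of all genes were lower within female cells and 18.2% higher within male cells. Cxcl12 was at -0.43 (-0.55 to -0.30) in female and 0.30 (0.20 to 0.41) in male cells, and Vcam1 at -0.61 (-0.88 to -0.34) and 0.52 (0.22 to 0.84). Cluster 2 held 694.5 of the 4132.5 Cxcl12 UMIs and 102.5 of the 588 Vcam1 UMIs of immobilized osteo-primed cells. Ratios between the pools within each sex were not computed without it. Il7 was at -2.03 (-3.23 to -1.06) in female and 0.93 (-0.35 to 2.68) in male cells. Stress genes summed to 3192 CPM in immobilized and 4238 CPM in control osteo-primed cells, and their part in these ratios was not tested.

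In osteoblasts the 10 genes were low, and the class sat in different clusters in each pool. Cluster 9 held 135 immobilized and 69 control cells, cluster 10 held 119 and 39, cluster 11 held 101 and 175, and cluster 12 held 110 and 196. Vcam1 (0.87, interval 0.19 to 1.58), Angpt1 (0.89, interval 0.36 to 1.44) and Lepr (0.96, interval 0.49 to 1.43) were higher by more than 1.5-fold in the immobilized pool, where 14.7% of all genes were and 4.20% were lower. Vcam1 rests on 44.5 and 31.5 UMIs, under the 50 of that share. With a minimum of 1 UMI 26.4% of all genes were higher. The Vcam1 level, 11.2 and 6.09 CPM, was below the 33.4 and 10.8 CPM of haematopoietic-like cells. The part of free RNA in it was not tested. Over all 7960 genes the median log2 ratio in osteoblasts was 0.19, and the ratios of these genes include that shift. With each cluster given the same weight in both pools, Lepr stood at 0.29, Vcam1 at 0.20 and Angpt1 at -0.28.

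Lepr was close in 3 of the 4 osteoblast clusters, with 47.6 CPM in immobilized and 41.8 CPM in control cells of cluster 9, 24.8 and 25.2 in cluster 10, and 8.35 and 7.29 in cluster 11. In cluster 12 it stood at 17.7 and 9.51 CPM. Lepr was higher in female osteoblasts of the immobilized pool, at 1.16 (0.61 to 1.72), and in male osteoblasts its ratio was -0.76 (-1.71 to 0.31). Angpt1 was uneven between clusters, with 13.9 CPM in immobilized and 86.8 CPM in control cells of cluster 10, and 18.4 and 4.05 CPM in cluster 11. Over the whole class Angpt1 had 18.4 and 9.86 CPM, beside 32.0 and 27.7 CPM in haematopoietic-like cells, and the part of free RNA in it was not tested. Csf1 and Foxc1, both above the haematopoietic-like level, were at 0.16 (-0.15 to 0.46) and 0.13 (-0.25 to 0.49) between the pools.

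Across 19 points, each a skeletal or stromal cluster of at least 20 cells in 1 pool, all pairs of the 10 genes were positively correlated on log2(CPM + 1). These correlations are a description, as the points of a pool share libraries. The points span CAR, osteo-primed, osteoblast and osteocyte clusters. Genes that share a gradient over these classes correlate there, whatever they do within CAR cells. Csf1 and Il34 were the least alike pair, at r = 0.647, and Cxcl12 and Il7 the most alike, at r = 0.985. The gene most like Cxcl12 among 8681 others was Fbln5 (r = 0.990), and Eya1 (r = 0.984) stood nearest to Kitl, Grem1 (r = 0.992) to Il7, Senp7 (r = 0.983) to Angpt1 and Fbn1 (r = 0.985) to Vcam1. For Csf1 it was Kctd12 (r = 0.983), for Il34 Lbp (r = 0.975), for Ebf3 Prr16 (r = 0.993), for Foxc1 Pdgfrb (r = 0.985) and for Lepr Fstl1 (r = 0.986). Grem1, nearest to Il7, is itself one of the CAR markers used to name the cells. Pdgfrb, nearest to Foxc1, encodes a receptor of mural and stromal cells, and Il1r1, the gene ranked next to Lbp for Il34, is an interleukin 1 receptor.

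Genes that act around the 10 were described from lists. Over all genes with at least 50 UMIs in CAR cells, 3.73% were lower and 3.77% higher by more than 1.5-fold in the immobilized pool. Their median log2 ratio was 0.02, and these values stand beside each list below. Of 30 other niche factors, 21 had at least 50 UMIs in CAR cells. Of these, 5 were lower and 1 was higher by more than 1.5-fold in the immobilized pool, with a median log2 ratio of -0.32. Igf1, a growth factor for bone and blood cells, was the higher one, with 1181 CPM in immobilized cells, against 619 CPM in control cells and a log2 ratio of 0.93 (0.84 to 1.03). Its log2 ratio was 0.61 within female and 1.04 within male cells. Angptl1 (-1.73, interval -2.20 to -1.30), the matrix protein gene Sparcl1 (-1.09, interval -1.71 to -0.53) and the chemokine gene Ccl2 (-0.72, interval -1.36 to -0.13) were among the lower ones. Of 18 stromal transcription factors 14 were measured, and 2 were lower by more than 1.5-fold, Klf4 (-0.82, interval -1.39 to -0.30) and Snai2 (-0.77, interval -1.02 to -0.53), with 13 of the 14 below 0. Of 10 measured proteases and inhibitors that act on the members, the metalloproteinase inhibitor gene Timp3 (0.80, interval 0.39 to 1.21) alone was past 1.5-fold, on the higher side. None of 11 matrix and adhesion genes was past 1.5-fold. Of the 4 measured genes on the list of receptors, none was either. That list includes Lepr, which is itself among the 10 and is the receptor of leptin, not of these ligands. Kit, the receptor for stem cell factor, was at -0.07 (-0.27 to 0.12) in all CAR cells, at 1.15 in female and at -0.85 in male cells. Kit stood 6.50-fold over other CAR cells in the Cxcl14 and Kit subset and 5.67-fold in the Fabp4 subset. The former held 17 of 212 immobilized and 87 of 265 control male CAR cells. The latter held 17 of 93 immobilized and 21 of 249 control female CAR cells. The high Kit level of the Cxcl14 and Kit subset follows from the subset rule, which uses Kit, and is not a result. Sparcl1 led the genes of the Cxcl14 and Kit subset. The part of the subset mix was not tested. Several lower genes, such as Klf4, respond to cell dissociation, and the stress list stood lower in the same cells; its part was not tested.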

How the data were processed

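Live CD45.2-Ter119-tdTom+ cells were profiled with the 10x Genomics single cell 3′ v3.1 kit, 2 lanes for each pool. The authors deposited a matrix of UMI counts for each lane, with genes against barcodes; the submitters' processing notes name Cell Ranger 7.0.0 and mm10; the annotation release and any cell filter are not given in the sources used here. The values are whole-number counts as deposited, not normalized.

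Lane counts of a barcode were summed for filters (at least 500 genes, under 10% mitochondrial counts) and averaged for levels, so counts need not be whole. The lanes share their cells and agreed within sampling noise (mean chi-square per gene 0.588 immobilized, 0.537 control), hence each pool is 1 sample. Scrublet marked 9 immobilized (0.515%) and 18 control (1.11%) barcodes as doublets, which were removed. Cells were clustered with scanpy 1.11.5 (2000 variable genes without the 10 members, 30 components, Leiden resolution 1.0) and named from marker lists without the members, when at least 3 markers and 30% of a list were enriched over 2-fold. A cluster led by cell-cycle genes was left unnamed by a rule set after seeing the data. No cluster took Cxcl14 with Kit, so the CAR class was clustered again, as the subset rule provides. Differences are log2 ratios of CPM with 0.5 counts added. Intervals are exact 95% Poisson, Clopper-Pearson or conditional binomial intervals; PCR was corrected by UMIs. Genes are compared with all genes of at least 50 lane-mean counts in 1 of the 2 groups, past 1.5-fold. With 1 pool per group there is no test. The interval step was tested on simulated data.

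The members and lists were chosen with earlier results of these data known. All members are named, with the 3 genes most like each by Pearson r (the first is printed, and Il1r1 as the next for Il34), and up to 4 genes per list by size of log2 ratio. Alternatives covered scaling, filters, doublets, lanes, clustering, depth, cluster mix and sex; leaving out sex-linked genes from clustering, leaving out the osteo-primed cluster of 1 pool and counting the cycling cluster as osteo-primed were chosen after seeing the data. Other tools were python 3.11.15, anndata 0.12.19, numpy 2.4.6, scipy 1.17.1, pandas 2.3.3, igraph 0.11.9, scikit-learn 1.9.0 and matplotlib 3.10.9.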

Additional observations from a re-analysis of the deposited data

Results flagged for a closer look

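The log2 ratio of immobilized over control cells had opposite signs in female and male cells, with both counting intervals away from 0, in 8 cases among the classes and CAR subsets. For Csf1 in CAR cells it was 0.28 (female) and -0.47 (male), and for Ebf3 in CAR cells 0.13 (female) and -0.25 (male). In the remaining CAR cells, which are part of that class, it was 0.69 (female) and -0.51 (male) for Kitl, 0.58 and -0.51 for Csf1, and 0.57 and -0.19 for Ebf3. For Kitl in the Aldh1a2 and Nrg3 subset it was 0.18 (female) and -1.33 (male), where the male value rests on 1 immobilized and 3 control cells. For Cxcl12 in osteo-primed cells it was -0.43 (female) and 0.30 (male), and for Vcam1 in osteo-primed cells -0.61 (female) and 0.52 (male). These osteo-primed ratios include cluster 2, with 13 immobilized cells and no control cell, and were not computed without it. The difference between the sexes was not tested, as each sex of a pool is 1 sample, and sex and animal cannot be told apart.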

How the results depend on the processing

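The median log2 ratio of immobilized over control over the 10 genes was -0.20 in CAR cells, 0.20 in osteo-primed cells and 0.14 in osteoblasts. In CAR cells it became 0.021 in female and -0.30 in male cells, and in osteo-primed cells -0.13 in female and 0.41 in male cells. In osteoblasts it became -0.41 with doublet calls kept, the value of Vcam1 there. The other medians ranged from -0.24 to -0.11 in CAR cells, from 0.04 to 0.21 in osteo-primed cells and from -0.13 to 0.41 in osteoblasts; with 1 lane left out they were -0.22 to -0.17, 0.18 to 0.21 and 0.13 to 0.22. The cause of these moves was not tested.

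Single genes past 1.5-fold that changed sign were mostly Il34 and members of small subsets. Between the pools, Il7 in the Fabp4 subset was at 0.17 at resolution 2, and Il34 there was at -0.022 under a looser cell filter (200 genes, 20% mitochondrial counts), -0.48 at resolution 2 and -0.30 in female cells. Il7 in osteo-primed cells was at 0.93 in male cells. In osteoblasts Vcam1 was at -0.41 with doublet calls kept, Angpt1 at -0.28 with the same cluster mix and -0.41 in male cells, and Lepr at -0.76 in male cells. Over other CAR cells in the immobilized pool, Il34 was at 0.77 in the Fabp4 subset at resolution 2, at 1.41 (female) and 0.99 (male) in the Aldh1a2 and Nrg3 subset, and at -0.75 (female) in the remaining cells. In the control pool Csf1 was at 0.49 and Il34 at 1.16 in the Fabp4 subset at resolution 2, Il34 at 0.27 (female) in the Aldh1a2 and Nrg3 subset, and at -0.54 (resolution 2) and -0.033 (male) in the remaining cells. The cause was not tested.

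With 1 pool per group, neither animals nor handling can be separated from immobilization, and depth limits Il7 and Il34 outside CAR cells. No paired analysis was possible because the shared lane numbers mark repeat lanes of 1 pool and no test was made.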
